A study of Mus musculus with 12 samples.

Results

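Small structural RNAs were examined in hippocampal slices at 1 hr and 3 hr after chemical LTP. Of 8 such RNAs listed, 7 had a row among the 41091 genes of the count tables: Rmrp, Rpph1, Rn7sk, Rn7s1, Rn7s2, Rny1 and Rny3. Bc1 was not analysed here. The RNAs were chosen in part by the higher level of Rmrp in 3 hr than in 1 hr control slices, so the control values of every member across time are given as a description without a test, and so are the LTP against control values of Rmrp, which use those controls. The contrast of 3 hr with 1 hr LTP slices was tested for all 7 genes. The list was drawn up with earlier results of these data known, and LTP and control slices came from the same animals, so that test does not stand apart from the choice.

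The slices were from wild-type male C57BL/6 mice, 2 to 3 months old, with the dentate gyrus cut away. LTP slices received 50 uM forskolin, which activates adenylyl cyclase, for 5 min and then forskolin with 30 mM KCl and 10 mM calcium, 10 min in all. The vehicle, 0.2% DMSO, was given alone to the control slices. Collection followed 1 hr or 3 hr later, which with the treatment gave 4 groups. Each group had 3 libraries of ribosomal RNA-depleted total RNA, and each animal of a time point gave a control and an LTP library. A slice holds many cell types, so a change in their proportions and a change in RNA per cell cannot be told apart. Different animals are assumed for the 2 time points, which were deposited as separate tables, so time cannot be told apart from animal or from anything that differed between the tables. The library 1 hr control replicate 2, a clustering outlier set aside in the study, was left out of the group means and tests, and its values are given beside them.

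Library totals ran from 37118382 to 50815001 counts, and replicates differed by more than counting error (chi-square per degree of freedom 9.49 to 85.6). The 7 genes together took 1.19% to 1.47% of a library's counts, of which Rn7sk alone took 0.84% to 1.27%. Other non-coding genes under 500 bases took 0.19% to 0.25% of counts in the 1 hr libraries and 0.32% to 1.41% in the 3 hr libraries. Markers of CA pyramidal neurons were detected for 7 of 7 genes, with a summed level of 2683 to 4167 CPM (TMM-scaled counts relative to library size). The 5 dentate markers summed to 162.1 to 293.2 CPM. The 5 microglia markers, none of them at 0 throughout, summed to 168.0 to 196.5 CPM at 1 hr and 119.6 to 141.5 CPM at 3 hr, and the 4 oligodendrocyte markers to 4226 to 6015 and 5752 to 7115 CPM. Their part in the differences with time was not tested. The activity genes Arc, Fos, Egr2, Npas4 and Btg2 were called higher in LTP slices at each time point, 5 of 5. The study made libraries only from samples in which LTP had raised Arc mRNA. All 5 are also among the top genes it reported at 1 hr, so these calls are no independent check of the induction.

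The RNAs studied here work as RNA, in particles with proteins, and are made by RNA polymerase III. Rmrp is the RNA of RNase MRP, which cleaves pre-ribosomal RNA in the nucleolus, and Rpph1 is the catalytic RNA of RNase P, which trims the 5′ end of pre-tRNAs. The protein subunits of both enzymes are largely shared. Rn7sk is 7SK RNA, which holds the elongation kinase P-TEFb inactive through HEXIM proteins and so limits the release of paused RNA polymerase II, including at activity genes in neurons. Rn7s1 and Rn7s2 encode 7SL, the RNA scaffold of the signal recognition particle (SRP), which brings ribosomes making secreted and membrane proteins to the endoplasmic reticulum. Rny1 and Rny3 are Y RNAs, bound by the Ro60 and La proteins. Most of these RNAs carry promoters upstream of the transcribed part, read through SNAPc and Brf2, whereas 7SL also uses internal elements read through TFIIIC.

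All 7 genes are annotated in GENCODE M21 on GRCm38, the assembly of the counts, as a single exon each. Rmrp (ENSMUSG00000088088.1) lies at chr4:43492788-43493058 on the minus strand and Rpph1 (ENSMUSG00000092837.1) at chr14:50807449-50807767 on the minus strand. Rn7sk (ENSMUSG00000065037.1) lies at chr9:78175303-78175633 on the minus strand. Rn7s1 (ENSMUSG00000099021.1) lies at chr12:69159295-69159594 on the plus strand, and Rn7s2 (ENSMUSG00000099250.1) at chr12:69361182-69361481 on the minus strand. Rny1 (ENSMUSG00000065701.1) and Rny3 (ENSMUSG00000064945.1) sit close together at chr6:47788069-47788180 on the minus strand and chr6:47781624-47781725 on the plus strand. Rmrp shares 124 exonic bases with the opposite-strand gene Ccdc107, and Rpph1 shares 233 with the same-strand gene Ccnb1ip1. Whether the counting used strand is not given in the sources used here, and strand would not separate Rpph1 from Ccnb1ip1. Reads in such overlaps could go to either gene or to neither, which limits the levels of Rmrp and Rpph1 and their ratio.

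The annotated transcripts of Rmrp and Rpph1 are shown because the 2 sister RNAs moved differently with time. Sequences are from GENCODE M21, 5′ to 3′, and capitals mark the longest run the 2 share, 9 bases. The RNAs align with 49.7% identity, and of the 319 bases of Rpph1 the first 300 are printed.
Rmrp: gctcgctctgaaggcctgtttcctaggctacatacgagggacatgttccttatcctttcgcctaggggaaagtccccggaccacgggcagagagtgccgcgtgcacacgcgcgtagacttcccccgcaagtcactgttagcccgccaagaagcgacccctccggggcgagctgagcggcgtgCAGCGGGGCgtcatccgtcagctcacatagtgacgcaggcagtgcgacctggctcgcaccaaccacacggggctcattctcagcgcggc
Rpph1: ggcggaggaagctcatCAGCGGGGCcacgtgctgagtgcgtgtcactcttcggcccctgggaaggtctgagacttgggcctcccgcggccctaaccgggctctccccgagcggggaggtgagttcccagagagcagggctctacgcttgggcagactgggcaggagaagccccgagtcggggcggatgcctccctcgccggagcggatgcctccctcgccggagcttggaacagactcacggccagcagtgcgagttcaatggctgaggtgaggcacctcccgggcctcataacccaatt

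For 7SK the first 120 of 331 bases are shown, since they hold the 5′ hairpin that binds HEXIM. Capitals mark GATC, which reads the same on both strands and occurs 3 times. Of 137364 annotated mouse transcripts of at least 120 bases, 0.521% have 3 or more GATC in their first 120 bases.
Rn7sk: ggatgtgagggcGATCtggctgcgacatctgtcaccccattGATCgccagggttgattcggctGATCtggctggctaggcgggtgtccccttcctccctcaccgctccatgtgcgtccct

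Counts of the 2 7SL genes are hard to separate, because over 300 bases the annotated transcripts of Rn7s1 and Rn7s2 are 100% identical with 0 substitutions. A read lying inside them cannot be assigned to 1 locus, and how such reads were counted is not given in the sources used here.

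The 2 Y RNAs moved together across libraries and are shown for their likeness, 71.4% identity over 112 aligned columns. Capitals mark the longest run they share, 12 bases. At 112 and 102 bases they are the shortest RNAs described here.
Rny1: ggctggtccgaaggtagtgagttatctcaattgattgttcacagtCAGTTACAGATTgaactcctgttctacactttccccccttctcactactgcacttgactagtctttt
Rny3: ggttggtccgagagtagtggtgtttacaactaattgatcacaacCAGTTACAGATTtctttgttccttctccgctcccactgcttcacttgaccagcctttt

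Compared per kilobase of RNA, 7SK was far the most abundant of the 7. Its mean level over 11 libraries was 33070 CPM per kb, with a range of 24930 to 38390. Rpph1 followed at 4066 CPM per kb (2985 to 5304) and Rmrp at 2680 (1328 to 4392), and Rmrp was below Rpph1 in every library. The means of the 7SL and Y RNAs were 1051 CPM per kb for Rn7s2 (393.9 to 1551), 367.8 for Rn7s1, 319.1 for Rny3 and 189.0 for Rny1. The range of Rn7s2 overlapped those of Rmrp and Rn7s1, and Rn7s2 was above Rmrp in 1 hr LTP replicates 2 and 3 (1551 against 1432 and 1469 against 1459 CPM per kb) and in 1 hr control replicate 3 (1427 against 1383). The ranges of Rn7s1, Rny3 and Rny1 overlapped (153.2 to 1025, 136.1 to 896.2 and 81.5 to 620.0), so their order was not set beyond their spread. Libraries of fragmented RNA recover short structured RNAs incompletely, so these are levels of recovered reads rather than of molecules.

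Rmrp was the RNA with the clearest difference between the time points. In the 1 hr LTP replicates 1 to 3 its level was 433.3, 388.0 and 395.4 CPM, and in the 3 hr LTP replicates it was 824.8, 1002 and 1026 CPM. The groups did not overlap, the lowest 3 hr library lying well above the highest 1 hr library. In the controls, whose values chose the list, Rmrp was at 359.8 and 374.9 CPM at 1 hr (399.8 in the library left out) and at 1059, 935.9 and 1190 CPM at 3 hr.

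**Figure D1:**
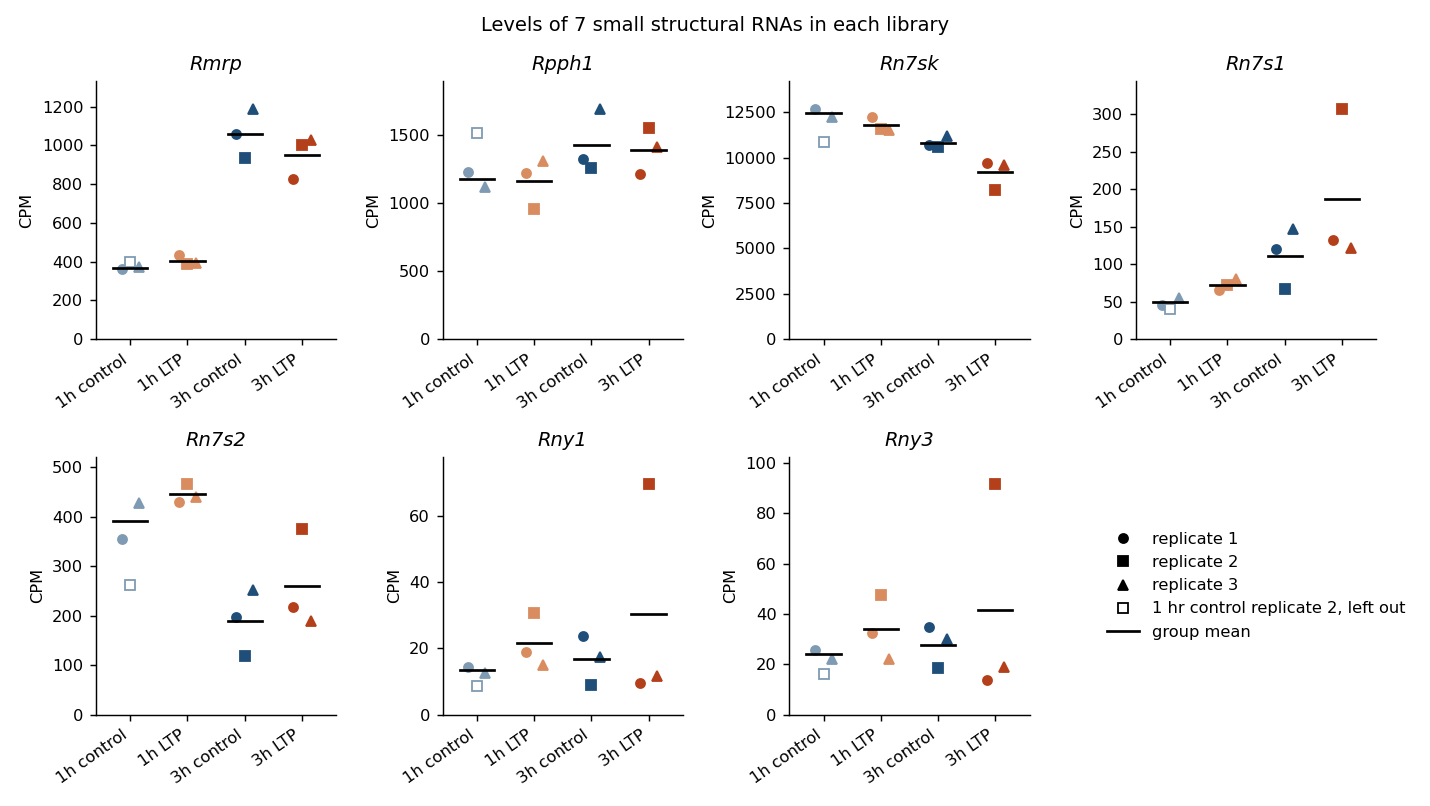
Level of each RNA in CPM (TMM-scaled, linear axis from 0) in each library, by group; symbols give the replicate (animal), the open square is 1 hr control replicate 2, and lines are group means. Rmrp is higher in all 6 libraries of 3 hr than in the 1 hr libraries, Rn7sk declines, and 3 hr LTP replicate 2 stands above the other 3 hr LTP libraries for Rn7s1, Rn7s2, Rny1 and Rny3.

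In the tested contrast, Rmrp rose by 1.21 on the log2 scale (SE 0.10, 2.31-fold, n = 3 and 3) from 1 hr to 3 hr LTP slices. The adjusted p was 4.63e-06 (edgeR quasi-likelihood test, Benjamini-Hochberg). Of the 7 RNAs, 4 were called in this contrast (adjusted p under 0.1 and fold change over 1.2), 2 higher and 2 lower. Among the 4 are Rn7s1 and Rn7s2, which are identical in sequence and were not called when summed. The background was high, since 35.9% of the 18584 genes tested were called. Among them 349 other genes had a log2 fold change at least as large as that of Rmrp, 124 of these being non-coding genes under 500 bases. In the controls the described value was 1.503 (SE 0.11, 2.83-fold).

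LTP against control is described for Rmrp and not tested, because it contains the controls that chose it. At 1 hr Rmrp was 367.4 ± 10.7 CPM in controls (SD, n = 2) and 405.5 ± 24.3 in LTP slices (n = 3), a log2 difference of 0.15 (SE 0.07). At 3 hr it was 1062 ± 127.2 CPM in controls and 951.1 ± 110.1 in LTP slices, a log2 difference of -0.15 (SE 0.11). That value ran from -0.23 to -0.05 with a library left out and was -0.39 with scaling to other short non-coding genes, which moved the median of all genes by -0.26. By animal at 3 hr the log2 ratio of LTP to control was -0.36, 0.10 and -0.21, so the animals did not share a direction.

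Rpph1, the RNA of RNase P, did not follow Rmrp beyond its spread. It was at 1219, 952.1 and 1308 CPM in the 1 hr LTP libraries and at 1215, 1552 and 1408 CPM in the 3 hr LTP libraries, which overlap. The log2 difference was 0.24 (95% interval -0.03 to 0.52, adjusted p = 0.154), and it was not called. Without 1 hr LTP replicate 3 it was 0.37 (adjusted p = 0.0633) and without 3 hr LTP replicate 1 it was 0.34 (adjusted p = 0.0827), both called higher, so 1 library decides this call.

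The controls of Rpph1 were at 1224 and 1120 CPM at 1 hr (1515 in the library left out) and 1321, 1254 and 1692 CPM at 3 hr. LTP against control gave log2 differences of -0.005 (SE 0.10) at 1 hr and -0.02 (SE 0.13) at 3 hr, with adjusted p of 0.999 and 0.955. The 95% intervals ran from -0.22 to 0.21 at 1 hr and from -0.31 to 0.27 at 3 hr. Neither was larger than the spread between replicates.

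The ratio of Rmrp to Rpph1 counts within a library does not depend on the scaling. It was 0.294 and 0.335 in the 1 hr controls (0.264 in the library left out) and 0.355, 0.407 and 0.302 in the 1 hr LTP libraries. At 3 hr it was 0.802, 0.746 and 0.704 in controls and 0.679, 0.645 and 0.729 in LTP slices. All 6 libraries of 3 hr lay above all 6 of 1 hr, and Rmrp stayed the less counted of the 2 RNAs. The numerator chose the list, so the ratio is a description.

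**Figure D2:**
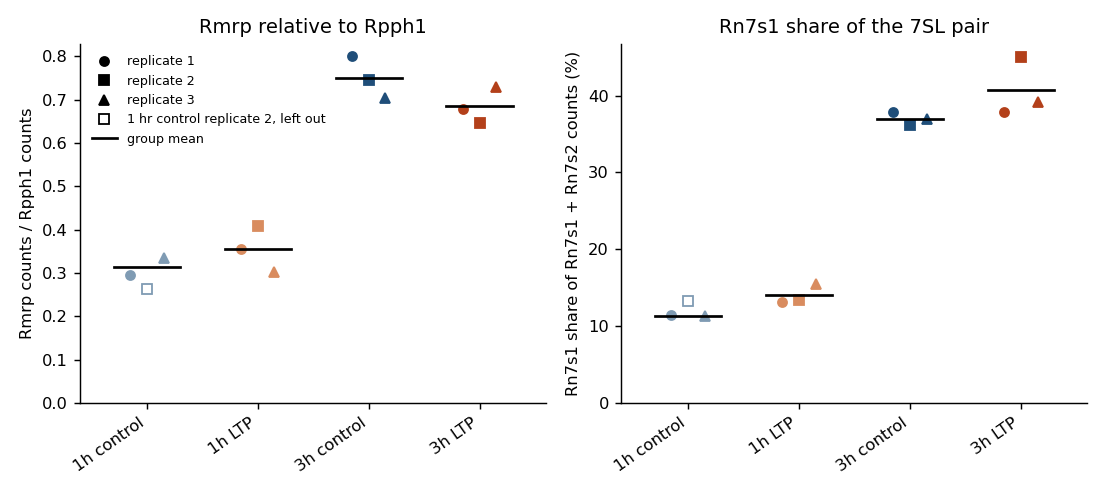
Left, Rmrp counts divided by Rpph1 counts in each library; right, Rn7s1 counts as a percentage of Rn7s1 plus Rn7s2 counts, both on axes from 0, with symbols for replicates, the open square for 1 hr control replicate 2, and lines for group means. The ratio is 0.264 to 0.407 at 1 hr and 0.645 to 0.802 at 3 hr, and the Rn7s1 share is 11.2% to 15.5% at 1 hr and 36.1% to 45.0% at 3 hr.

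Rn7sk, the most abundant of the RNAs, moved the other way. It was at 12260, 11580 and 11510 CPM in the 1 hr LTP libraries and at 9738, 8251 and 9599 CPM in the 3 hr LTP libraries. The groups did not overlap, and 3 hr LTP replicate 2 was the lowest of all. Rn7sk fell by 0.38 on the log2 scale (SE 0.07), to 0.771 of its 1 hr level (adjusted p = 0.00107), and leaving out each library in turn kept it between -0.42 and -0.30.

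In controls Rn7sk was at 12710 and 12240 CPM at 1 hr (10890 in the library left out) and at 10720, 10600 and 11210 CPM at 3 hr, a described log2 difference of -0.23 (SE 0.08). With the library left out put back it was -0.14. At 3 hr the LTP libraries all lay below the controls, 9196 ± 821.3 against 10840 ± 320.3 CPM (SD, n = 3 each). The log2 difference of -0.22 (SE 0.08, adjusted p = 0.178) was not called, although LTP was lower than control in 3 of 3 animals (-0.14, -0.36 and -0.22). It was -0.15 without 3 hr LTP replicate 2, not called, and -0.47 with scaling to other short non-coding genes (adjusted p = 0.0944), called. At 1 hr the difference was -0.07 (SE 0.05, adjusted p = 0.920), with overlapping groups.

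The 2 genes of 7SL went in opposite directions with time. Rn7s1 was at 65.0, 72.0 and 80.8 CPM in the 1 hr LTP libraries and at 132.3, 307.5 and 121.4 CPM in the 3 hr LTP libraries. Rn7s2 was at 430.5, 465.3 and 440.8 CPM and at 217.3, 375.5 and 188.5 CPM in the same libraries. Neither gene's groups overlapped, Rn7s1 being higher and Rn7s2 lower at 3 hr.

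Rn7s1 rose by 1.34 on the log2 scale (SE 0.31, 2.54-fold, adjusted p = 0.00458) and Rn7s2 fell by 0.79 (SE 0.25, 1.73-fold lower, adjusted p = 0.0219). Without 3 hr LTP replicate 2 the rise of Rn7s1 was 0.79 and the fall of Rn7s2 was -1.15, both still called. Control slices showed the same opposite movement. The described control differences were 1.13 (SE 0.36) for Rn7s1 and -1.08 (SE 0.27) for Rn7s2. Control levels of Rn7s1 were 46.0 and 54.2 CPM at 1 hr (40.1 in the library left out) and 120.2, 66.8 and 147.5 at 3 hr. Those of Rn7s2 were 354.3 and 428.2 CPM (262.3 in the library left out) and 197.2, 118.2 and 252.3.

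Since the 2 sequences are identical, the sum of the pair is the firmer measure of 7SL. It was 495.5, 537.3 and 521.5 CPM in the 1 hr LTP libraries and 349.7, 682.9 and 309.9 CPM in the 3 hr LTP libraries, so that the groups overlapped. Tested as 1 gene, an alternative added after the data were seen, the sum differed by -0.23 on the log2 scale (95% interval -0.81 to 0.34, adjusted p = 0.529). Without 3 hr LTP replicate 2 the sum was lower by -0.67 (adjusted p = 0.0179) and was called, and without any other 1 library it was -0.24 to -0.02 and not called. The described control difference of the sum was -0.58 (SE 0.30).

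What did differ was the division of reads between the loci. Rn7s1 took 11.5% and 11.2% of the pair in the 1 hr controls (13.3% in the library left out) and 13.1%, 13.4% and 15.5% in the 1 hr LTP libraries. It took 37.9%, 36.1% and 36.9% in the 3 hr controls and 37.9%, 45.0% and 39.2% in the 3 hr LTP libraries. The shares of the 1 hr and the 3 hr libraries did not overlap. Across the 11 libraries the 2 genes had a Pearson correlation of -0.18 (log2 CPM), but once the group means were removed it was 0.97, a description in which the genes share libraries and reads. Whether the counting differed between the 2 tables was not tested.

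At 1 hr, LTP against control, 1 of the 6 RNAs tested was called, where 0.789% of 17736 genes were called. This was Rn7s1, at 50.1 ± 5.83 CPM in controls (SD, n = 2) and 72.6 ± 7.88 in LTP slices (n = 3). It rose by 0.55 on the log2 scale (SE 0.10, 1.46-fold, adjusted p = 0.0148), higher in LTP than control in 3 of 3 animals, the one left out included. The call was lost without 1 hr control replicate 1 (0.43, adjusted p = 0.396) and with scaling to other short non-coding genes (0.35, adjusted p = 0.460). Other short RNAs had positive medians in this contrast, 0.21 over 868 non-coding genes under 500 bases (7 called higher, 0 lower) and 0.42 over 36 other genes of the biotype misc_RNA, that of Rn7s1, against -0.001 over all genes. Their part in the value of Rn7s1 was not tested. The summed pair differed by 0.24 (SE 0.08, adjusted p = 0.433), and Rn7s2 by 0.20 (SE 0.08, adjusted p = 0.655). Of the 6 RNAs tested, 4 had an unadjusted p under 0.05, as had 1190 of the 17736 genes. These were Rn7s1, Rn7s2, Rny1 and Rny3, all higher in LTP slices.

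At 3 hr, LTP against control, 0 of the 6 RNAs tested were called by edgeR, where 6.6% of 17508 genes were called. DESeq2 also called 0, and 1 of the 6, Rn7sk, had an unadjusted p under 0.05, as had 3540 of the 17508 genes. Scaling to other short non-coding genes called 3 of the 6, Rn7sk lower (-0.47) and Rn7s1 (0.48) and Rny1 (0.53) higher. That scaling called 2824 of the 17508 genes, 9.81% of them higher, and moved the median of all genes by -0.26. Leaving out 3 hr LTP replicate 2 called 1, Rny3 lower (-0.75). Rn7s1 was at 111.5 ± 41.0 CPM in controls and 187.1 ± 104.4 in LTP slices (log2 difference 0.76, 95% interval -0.10 to 1.61, adjusted p = 0.302). Rn7s2 was at 189.2 ± 67.4 and 260.4 ± 100.6 CPM (0.47, adjusted p = 0.415). Without 3 hr LTP replicate 2 these differences were 0.20 and 0.12. By animal the log2 ratio of LTP to control for the 7SL genes was 2.20 for Rn7s1 and 1.67 for Rn7s2 in animal 2 and between -0.42 and 0.14 in the others. Other short RNAs had a positive median here too, 0.30 over 826 non-coding genes under 500 bases (72 called higher, 2 lower). It was 0.42 over 40 other misc_RNA genes, against -0.002 over all genes. Their part in the values of the 7SL and Y RNAs was not tested.

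The Y RNAs varied most between animals. Rny1 was at 18.8, 30.7 and 15.1 CPM in the 1 hr LTP libraries and at 9.56, 69.4 and 11.7 CPM in the 3 hr LTP libraries. Rny3 was at 32.5, 47.5 and 22.3 CPM and at 13.9, 91.4 and 18.9 CPM in the same libraries. In each case 3 hr LTP replicate 2 was above every other library, and the other 2 libraries of 3 hr LTP were below all 3 of 1 hr LTP.

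The contrast of 3 hr with 1 hr LTP slices was 0.47 for Rny1 (95% interval -0.75 to 1.70, adjusted p = 0.548) and 0.26 for Rny3 (-0.85 to 1.37, adjusted p = 0.723). Neither was called with all libraries. Without 3 hr LTP replicate 2 the sign turned, and both were called lower at -1.04 for Rny1 (adjusted p = 0.0184) and -1.07 for Rny3 (adjusted p = 0.00656). The direction of the Y RNAs with time therefore rests on this 1 library.

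**Figure D3:**
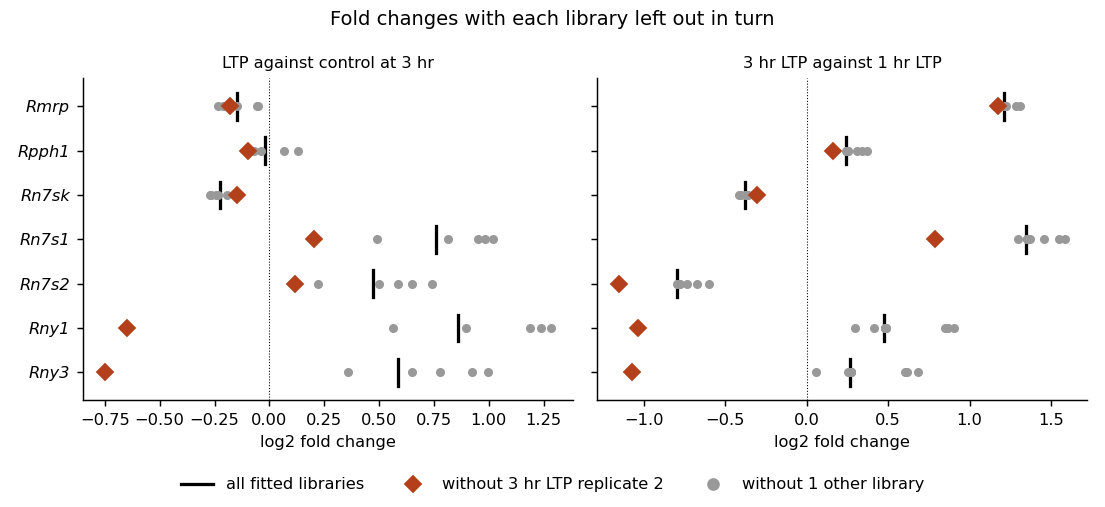
Log2 fold change of each RNA with all fitted libraries (black bar), without 3 hr LTP replicate 2 (red diamond) and without each other library in turn (grey points), for LTP against control at 3 hr and for 3 hr against 1 hr LTP. Without 3 hr LTP replicate 2, Rny1 and Rny3 pass from above to below 0 in both contrasts, Rn7sk stays below 0, at -0.15 and -0.30, and Rmrp stays above 0 between the LTP groups.

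In controls Rny1 was at 14.5 and 12.6 CPM at 1 hr (8.56 in the library left out) and 23.8, 9.12 and 17.6 at 3 hr. Rny3 was at 25.6 and 22.3 CPM (16.3 in the library left out) and 34.95, 18.5 and 30.2. The control groups of the 2 time points overlapped for both genes, with 3 hr control replicate 2 the lowest of the 3 hr controls. LTP against control at 1 hr gave 0.68 for Rny1 (SE 0.22, adjusted p = 0.383) and 0.52 for Rny3 (SE 0.21, adjusted p = 0.655). Without 1 hr LTP replicate 3 these were 0.88 (adjusted p = 0.00472) and 0.75 (adjusted p = 0.00363), both called, and without 1 hr LTP replicate 2 they were 0.33 (adjusted p = 0.669) and 0.20 (adjusted p = 0.954), not called. At 3 hr they were 0.86 (SE 0.69, adjusted p = 0.525) and 0.59 (SE 0.61, adjusted p = 0.635), and without 3 hr LTP replicate 2 they were -0.65 (adjusted p = 0.208) and -0.75 (adjusted p = 0.0731), the second of them called lower.

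In every library Rny1 had fewer counts than Rny3. The ratio of Rny1 to Rny3 counts was 0.494 to 0.760, lowest in 3 hr control replicate 2 and highest in 3 hr LTP replicate 2. Their Pearson correlation over 11 libraries was 0.98, and 0.99 within groups. Within groups the Y RNAs also went with the 7SL genes (0.75 to 0.83) and against Rn7sk (-0.73), whereas Rmrp went with Rpph1 (0.71) and hardly with Rn7sk (-0.02). These correlations are across libraries that share animals and scaling and are given as a description.

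Other short RNAs were compared library by library. In 3 hr LTP replicate 2, 115 of 167 non-coding genes under 500 bases with at least 1 CPM were above the mean of the other 2 libraries of the group, with a median log2 difference of 0.30, against -0.01 over 14194 genes. Among the 7 RNAs, 6 were above, with a median of 0.88. In 3 hr control replicate 2, from the same animal by its label, 42 of 167 were above (median -0.19) and 0 of the 7 RNAs (median -0.81). The short RNAs and the 7 RNAs did not always go together: in 1 hr LTP replicate 2, 113 of 167 were above (median 0.18) but 3 of the 7 RNAs (median -0.004). In 3 hr control replicates 1 and 3, 110 and 104 of 167 were above. What in these slices or libraries goes with this was not tested.

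The effect of LTP was not shown to differ between the time points for any of the 6 RNAs tested. In the model of the 4 groups 0 of 6 were called by edgeR, 0 by DESeq2 and 0 at an unadjusted p under 0.05, where 0.0592% of 18584 genes were called. The effect of LTP at 3 hr minus that at 1 hr, on the log2 scale, was -0.14 (SE 0.10) for Rn7sk and -0.01 (SE 0.19) for Rpph1. It was 0.22 (SE 0.46) for Rn7s1, 0.28 (SE 0.37) for Rn7s2, 0.19 (SE 0.87) for Rny1 and 0.07 (SE 0.78) for Rny3, with adjusted p from 0.897 to 0.998. The wide errors of the 7SL and Y RNAs leave room for sizeable differences in either direction.

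**Figure D4:**
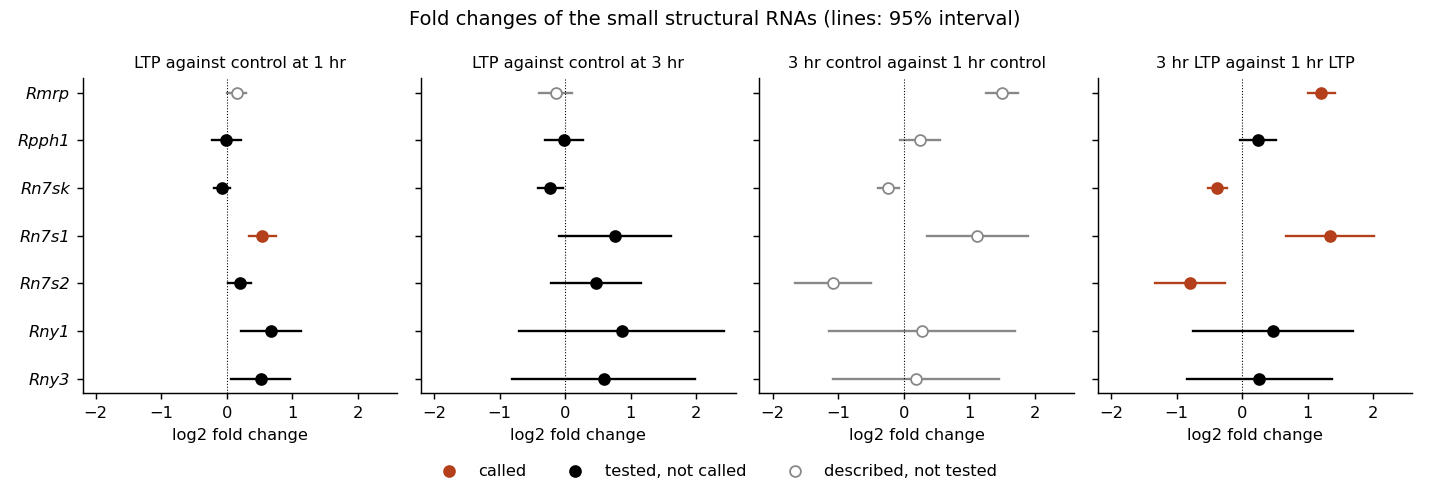
Log2 fold change with its 95% interval for the 7 RNAs in 4 comparisons; red points were called, black points were tested and not called, and open grey points are described only. Rmrp and Rn7s1 lie above 0 and Rn7sk and Rn7s2 below 0 between the time points, in LTP slices as in the control slices that chose the list.

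The genes that start nearest to these RNAs were compared over the same contrast. Ccdc107, which starts 158 bases from Rmrp on the other strand, was at 12.8 ± 1.02 CPM in 1 hr LTP slices and 14.1 ± 1.10 at 3 hr (SD, n = 3 each), a log2 difference of 0.11 (SE 0.09, adjusted p = 0.339). Parp2, a DNA repair enzyme gene starting 74 bases from Rpph1 on the other strand, fell by 0.38 (SE 0.09, adjusted p = 0.00491). Rps29, a ribosomal protein gene starting 109 bases from Rn7s1 on the other strand, rose by 0.42 (SE 0.06, adjusted p = 0.000181), the direction of Rn7s1 at 1.34. C920006O11Rik, starting 281 bases from Rn7sk, was at only 1.90 and 1.61 CPM and differed by -0.26 (SE 0.18, 95% interval -0.65 to 0.14, adjusted p = 0.301), an interval that holds the value of Rn7sk. Ccnb1ip1 had 0 to 0.0227 CPM, so few reads were assigned to it, in its overlap with Rpph1 or elsewhere.

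Other small RNAs are given by class for the contrast of 3 hr with 1 hr LTP slices, in which 35.9% of all genes were called, 3460 higher and 3216 lower. Of 222 snoRNA genes tested, which guide modification of ribosomal RNA, 72 were called higher and 5 lower (median log2 fold change 0.58, against 9.52e-05 over all genes tested). Of 17 scaRNA genes, which guide modification of spliceosomal RNA in Cajal bodies, 8 were called higher and 1 lower (median 0.59). Of 50 other misc_RNA genes, 11 were called higher and 4 lower (median 0.39). Of 107 snRNA genes, 9 were called higher and 13 lower (median -0.01). The replication-dependent histone genes, short mRNAs without a poly(A) tail, had 20 called higher and 2 lower of 55 (median 0.33). The classes were not tested against each other or against all genes, and they hold many near-identical copies, so single genes among them are uncertain.

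The genes whose level was most like that of Rmrp were found by Pearson correlation of log2 CPM over the 11 libraries. Among 14191 genes of at least 1 CPM they were Arfgap2 (0.991), the snoRNA gene Snora73b (0.988), Zfyve27 (0.988), Ankrd33b (0.988) and Apba3 (0.986). Among 173 non-coding genes under 500 bases they were Snora73b, the scaRNA genes Gm25395 (0.982), Scarna6 (0.960) and Gm22442 (0.956), and the pseudogene Ptges3-ps (0.955). All points share the split between the time points, so these values describe a common pattern of 1 hr and 3 hr levels.

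The proteins of RNase P and RNase MRP were examined beside their RNAs. From 1 hr to 3 hr LTP slices 6 of 11 were called lower and 2 higher, with a median log2 fold change of -0.29, where 35.9% of all genes were called. Rpp30 fell by 0.67 (SE 0.12, adjusted p = 0.000779), Rpp40 by 0.55 (SE 0.13), Rpp38 by 0.44 (SE 0.12) and Pop4 by 0.39 (SE 0.10). Pop1, the largest protein of the enzymes, rose by 0.30 (SE 0.09) and Rpp25l by 0.44 (SE 0.10). At this contrast Rmrp thus rose while more genes of this joint list were called lower than higher. LTP against control called 0 of 11 at 1 hr (0 also by DESeq2 and 0 at an unadjusted p under 0.05), where 0.789% of all genes were called, and 1 of 11 at 3 hr, where 6.6% were: Pop7 lower by -0.35 (SE 0.08, adjusted p = 0.0525).

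Of the subunits of RNA polymerase III, 3 of 18 were called higher and 3 lower from 1 hr to 3 hr LTP slices (median -0.02), near the 35.9% called over all genes. They included Polr3g lower by -0.60 (SE 0.11, adjusted p = 0.000754) and its paralog Polr3gl lower by -0.34 (SE 0.09). Polr2l, a subunit shared with the other polymerases, rose by 0.45 (SE 0.09) and Polr2h, also shared, by 0.31 (SE 0.11). The catalytic subunit gene Polr3a was at 47.8 ± 1.31 and 49.1 ± 1.08 CPM and was not called (0.02, SE 0.06). At 3 hr, LTP against control called 2 of 18, where 6.6% of all genes were called: Polr3g at -0.44 (SE 0.09, adjusted p = 0.0362) and the shared subunit Polr2e at -0.36 (SE 0.09, adjusted p = 0.0675), both lower.

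Of the initiation factors and Maf1, 3 of 18 were called higher and 4 lower from 1 hr to 3 hr LTP slices (median 0.03), again near the 35.9% over all genes. Snapc3 (-0.45, SE 0.06) and Snapc2 (0.48, SE 0.09), subunits of the complex that binds the upstream element of Rmrp-type promoters, went opposite ways. Of TFIIIC, Gtf3c6 was lower (-0.54, SE 0.12) and Gtf3c1 higher (0.27, SE 0.06), and Zfp143, an activator at such promoters, was lower (-0.44, SE 0.10). At 3 hr, LTP against control called 2 of 18 (list median 0.01), where 6.6% of all genes were called. Bdp1, a TFIIIB subunit, was higher by 0.41 (SE 0.06, adjusted p = 0.00886). Maf1, the repressor of the polymerase, was lower, at -0.33 (SE 0.07, adjusted p = 0.0441). Maf1 was at -0.05 (SE 0.08) at 1 hr, and its effects at the 2 times were not shown to differ (difference -0.27, SE 0.10, adjusted p = 0.655).

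Proteins that bind the other RNAs were read against the same 35.9% for calls, and against 8582 of 18584 genes for an unadjusted p under 0.05. Of 7 genes of the 7SK particle and P-TEFb, 1 was called from 1 hr to 3 hr LTP slices, and 3 had an unadjusted p under 0.05. Larp7, which binds and stabilizes the 3′ end of 7SK, fell by 0.43 (SE 0.07, adjusted p = 0.000569). Mepce, which caps and binds 7SK and is named here after its value was seen, was at 0.23 (SE 0.08, adjusted p = 0.0454) and was not called, its fold being under 1.2. Hexim1 was at 0.08 (SE 0.07, adjusted p = 0.399). Of 8 SRP and SRP receptor genes tested, Srp68 rose by 0.30 (SE 0.09), Srp9 fell by 0.30 (SE 0.06) and Srp54c fell by 0.62 (SE 0.07), while 6 of the 8 had an unadjusted p under 0.05. Srp54a was not tested. LTP against control at 3 hr called 1 of these 8, where 6.6% of all genes were called: Srp9 lower, at -0.29 (SE 0.07, adjusted p = 0.0591). Of 8 genes tested in the list drawn up for Ro60, La and proteins that bind BC1, 1 was called and 3 had an unadjusted p under 0.05. The list holds Zbp1, which in the mouse annotation is Z-DNA binding protein 1 and no such partner. Ssb, which encodes La, the protein that protects the 3′ ends of new polymerase III transcripts, fell by 0.81 (SE 0.08, adjusted p = 1.78e-05).

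Over the 6 lists, LTP against control at 1 hr called 0 of 69 genes by edgeR and 1 by DESeq2, where 0.789% of all genes were called. An unadjusted p under 0.05 was found for 5 of the 69, and for 1190 of all 17736 genes tested. At 3 hr it called 6 of 69, where 6.6% of all genes were called. From 1 hr to 3 hr LTP slices 26 of 70 were called, close to the share over all genes. The difference between the LTP effects called 0 of 70 by edgeR and 0 by DESeq2, where 0.0592% of all genes were called. For 3 of the 70 the unadjusted p was under 0.05, as it was for 1225 of all 18584 genes tested.

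**Figure D5:**
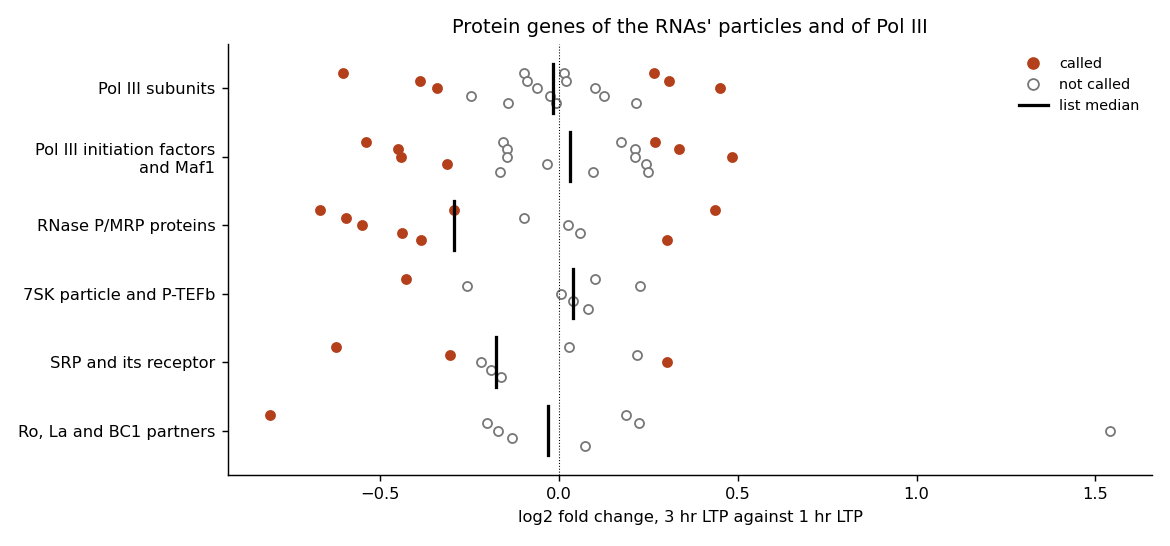
Log2 fold change of each tested protein gene from 1 hr to 3 hr LTP slices, by list, with called genes in red, genes not called open, and list medians as black bars. The RNase P and RNase MRP proteins lie mostly below 0 (median -0.29), and the polymerase III subunits and initiation factors lie on both sides of 0.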

How the data were processed

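Total RNA from 12 slice libraries was sequenced from stranded, ribosomal RNA-depleted libraries. According to the study's methods, the authors aligned paired-end reads with STAR to GRCm38/mm10 and counted them with Bioconductor packages, and the submitters' processing notes name DESeq2. The deposited tables, 1 per time point, hold raw counts per gene, not normalized. The study describes counts of coding regions, yet the tables list non-coding genes, which are used here. Of 41091 gene IDs, 40217 matched GENCODE M21 and 874 did not; all stayed in the fits.

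All genes passing filterByExpr were fitted on TMM-scaled counts in edgeR 4.0.16 (R 4.3.3), whose quasi-likelihood F test gave p-values adjusted by Benjamini-Hochberg. Calls needed a fold change over 1.2 and an adjusted p below 0.1, as in the study (no fold minimum for the difference between effects). LTP and control were compared within a time point (5 libraries at 1 hr, 6 at 3 hr), and the other contrasts in 1 model of the 4 groups (11 libraries). SE is the standard error on the log2 scale, and intervals are 95%. A floor of 3 counts was 0.0584 to 0.0791 CPM, for counting error only. The scripts were tested on simulated data. Replicates are animals. Correlations used log2 CPM with a pseudocount of 0.1.

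Genes named besides the 7 RNAs were called members of the protein lists (the 5 with the smallest p where more were called), defining partners, the gene starting nearest within 2 kb, and the 5 most like Rmrp. Some sequences and single-gene values are not reported here. The members and lists were chosen with earlier results of these data known. The labels give control and LTP libraries of a number to the same animal. Their deviations from group means had correlations of -0.0149, -0.156 and 0.075 at 1 hr and 0.0385, -0.0275 and 0.218 at 3 hr for animals 1, 2 and 3. Alternatives were DESeq2 1.42.0, its size factors, scaling to other non-coding genes under 500 bases, other filters, an animal block over all 12 libraries, the library set aside put back, 6 LTP libraries alone, and each library left out in turn.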

Additional observations from a re-analysis of the deposited data

Results flagged for a closer look

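Of the 5 activity genes named above, 3 had an LTP effect that differed between the time points by the test of the difference itself (edgeR quasi-likelihood test). The effect was smaller at 3 hr than at 1 hr by -0.68 on the log2 scale for Arc (SE 0.10, adjusted p = 0.031), by -1.06 for Egr2 (SE 0.18, adjusted p = 0.0794) and by -1.31 for Btg2 (SE 0.11, adjusted p = 0.00022). Of the 6 small structural RNAs tested, 0 were called for this difference, 0 also by DESeq2 and 0 at an unadjusted p under 0.05, where 0.0592% of all genes were called.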

How the results depend on the processing

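Between 3 hr and 1 hr LTP slices, Rmrp, Rn7sk, Rn7s1 and Rn7s2 kept their direction and call under every other scaling, filter, tool and choice of libraries, Rmrp between 1.16 and 1.31 with a library left out. With Rn7s1 and Rn7s2 summed the value was -0.23, opposite to Rn7s1, and was not called, so the calls of both genes were lost. At 1 hr the 140 called genes became 347 without a filter and 69 to 344 with a library left out, and the 1 called RNA became 0 with scaling to short non-coding genes, 3 without a filter (Rny1 and Rny3 added), and 0 to 3 with a library left out. That scaling moved the median of all genes by -0.20 at 1 hr and -0.26 at 3 hr, so values under it are read against this shift, and the share of called genes that were higher went from 98.6% to 79.8% at 1 hr, from 76.9% to 9.81% at 3 hr, and from 45.5% to 20% for the difference between effects. At 3 hr it gave 2824 called genes in place of 1155 and 3 called RNAs in place of 0 (Rn7sk lower at -0.47, Rn7s1 higher at 0.48, Rny1 higher at 0.53), and leaving out a library gave 228 to 2170 genes and 0 to 1 RNAs. The genes whose LTP effect differed numbered 11, and 80 with DESeq2, 102 without a filter, 7 with the replicate block (a fit that also put back the library set aside at 1 hr) and 1 to 67 with a library left out.

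Apart from that sum, the signs that turned were of values not called with all fitted libraries, but Rny1 and Rny3 were called lower between the LTP groups, and Rny3 at 3 hr, without 3 hr LTP replicate 2. At 1 hr the described value of Rmrp went from 0.15 to -0.04 under the short scaling, Rn7s2 was -0.0028 under the short scaling, and Rpph1 ran from -0.10 to 0.12 with a library left out. At 3 hr that range was -0.10 to 0.13 for Rpph1, -0.65 to 1.28 for Rny1 and -0.75 to 1.00 for Rny3, and between the LTP groups it was -1.04 to 0.91 for Rny1 and -1.07 to 0.68 for Rny3, the low end in each Y RNA being the fit without 3 hr LTP replicate 2. For the difference between effects the ranges were -0.12 to 0.12 for Rpph1, -0.36 to 0.46 for Rn7s1, -0.10 to 0.53 for Rn7s2, -1.34 to 0.60 for Rny1 and -1.28 to 0.47 for Rny3. With the animal as a replicate block and the library set aside put back, these differences were 0.12 for Rpph1, -0.56 for Rny1 and -0.57 for Rny3, and with that library put back and no block they were 0.12, -0.0088 and -0.096. Rny3 was -0.074 under the short scaling. The replicate block changed no call among the RNAs. The cause of these changes was not tested. At 3 hr the 7SL and Y RNAs varied widely between libraries of a group.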
